A study of Mus musculus with 6 samples.

Results

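Mitosis genes encode the machinery that separates the chromosomes of a dividing cell, and 34 of them were followed here in RAW-D macrophages with and without Lpin2. The members were the probe sets whose annotated mouse symbol was on a list of kinases, spindle checkpoint proteins, kinetochore proteins, spindle proteins and cytokinesis proteins. The list yielded 33 measured genes out of 19505 named genes on the array, each with 1 probe set, and Ccnb1, a B-type cyclin, had no probe set with a symbol here. With LPS, all 33 measured genes were lower in Lpin2 KO cells than in WT cells. In WT cells, with 1 array per treatment, LPS moved no gene of the array past the test, these 33 included. Over all genes, the largest rise with LPS was 2.98 on the log2 scale in WT cells, against 12.3 in KO cells.

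In a dividing cell, a cyclin-dependent kinase with a B-type cyclin starts mitosis, and Polo and Aurora kinases build the spindle. Kinetochores assemble on centromeres and bind spindle microtubules, and the spindle checkpoint holds back the anaphase-promoting complex until every chromosome is attached. The complex then marks cyclin and securin for destruction, the chromosomes part, and the central spindle and the cleavage furrow divide the cell. Most of these genes are transcribed in a wave late in the cycle, so their RNA is abundant in cultures that divide and scarce in cultures that do not. Macrophages of tissues mostly rest, whereas RAW264.7 and its derivatives are transformed lines that proliferate in culture.

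Total RNA was hybridized to 6 mouse Clariom S arrays, 1 per culture. Lpin2 KO clones #1 and #2 and WT cells were each measured after exposure to LPS, the lipopolysaccharide of Gram-negative bacteria, at 200 ng/mL over 4 h, and also untreated. RAW-D is a subclone of RAW264.7 chosen for its capacity to become osteoclasts, and the KO cells arose from CRISPR/Cas9 KO and HDR plasmids, puromycin selection and clonal isolation, steps that are described for the KO cells only. The groups are thus 2 arrays of Lpin2 KO cells with LPS, 1 array of WT cells with LPS, 2 arrays of untreated Lpin2 KO cells and 1 array of untreated WT cells, and a difference between KO and WT cannot be told apart from a difference between isolated clones and their parental culture.

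The authors deposited log2 signals from RMA, summarized per gene for untreated WT cells and per exon for the others according to the labels. Signals below a limit of 9.12 to 9.45, the 95th percentile over each array's negative control probes, are called dim here. The Lpin2 probe set was dim on all 6 arrays (7.52 and 7.98 for KO with LPS, 6.84 for WT with LPS, 7.97 and 8.42 for untreated KO and 7.21 for untreated WT), so it could not check the genotype. Of 11 macrophage markers, 10 were above the limit in KO cells with LPS, 9 in WT cells with LPS, 9 in untreated KO cells and 8 in untreated WT cells, and 7 of 10 osteoclast markers were above it in every group. No marker of lymphocytes, of neutrophils and mast cells, or of fibroblasts and epithelium was above it in any group, and of the dendritic cell markers only Itgax was, in KO cells with LPS. In limma, 3 of 11 macrophage markers were higher in KO than in WT cells with LPS (all genes, 4.62%) and 4 were higher untreated (422 of all 19505 genes). The summed log2 signal of the macrophage markers was 19.36 to 19.37 in KO cells with LPS and 19.10 in WT cells with LPS. It was 19.54 in untreated KO cells and 18.99 in untreated WT cells. The part of these markers in the results below was not tested.

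KO cells with LPS stood below every other array in every measured mitosis gene. The members' median log2 signal was 10.28 and 10.39 in KO cells with LPS, against 13.50 in WT cells with LPS. It was 12.71 and 12.17 in untreated KO cells, against 13.37 in untreated WT cells. Both KO arrays with LPS lay below the other 4 arrays in 33 of 33 members, a pattern found in 18.6% of all genes. In bulk RNA, fewer dividing cells and less of these RNAs per cell cannot be told apart.

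**Figure D1:**
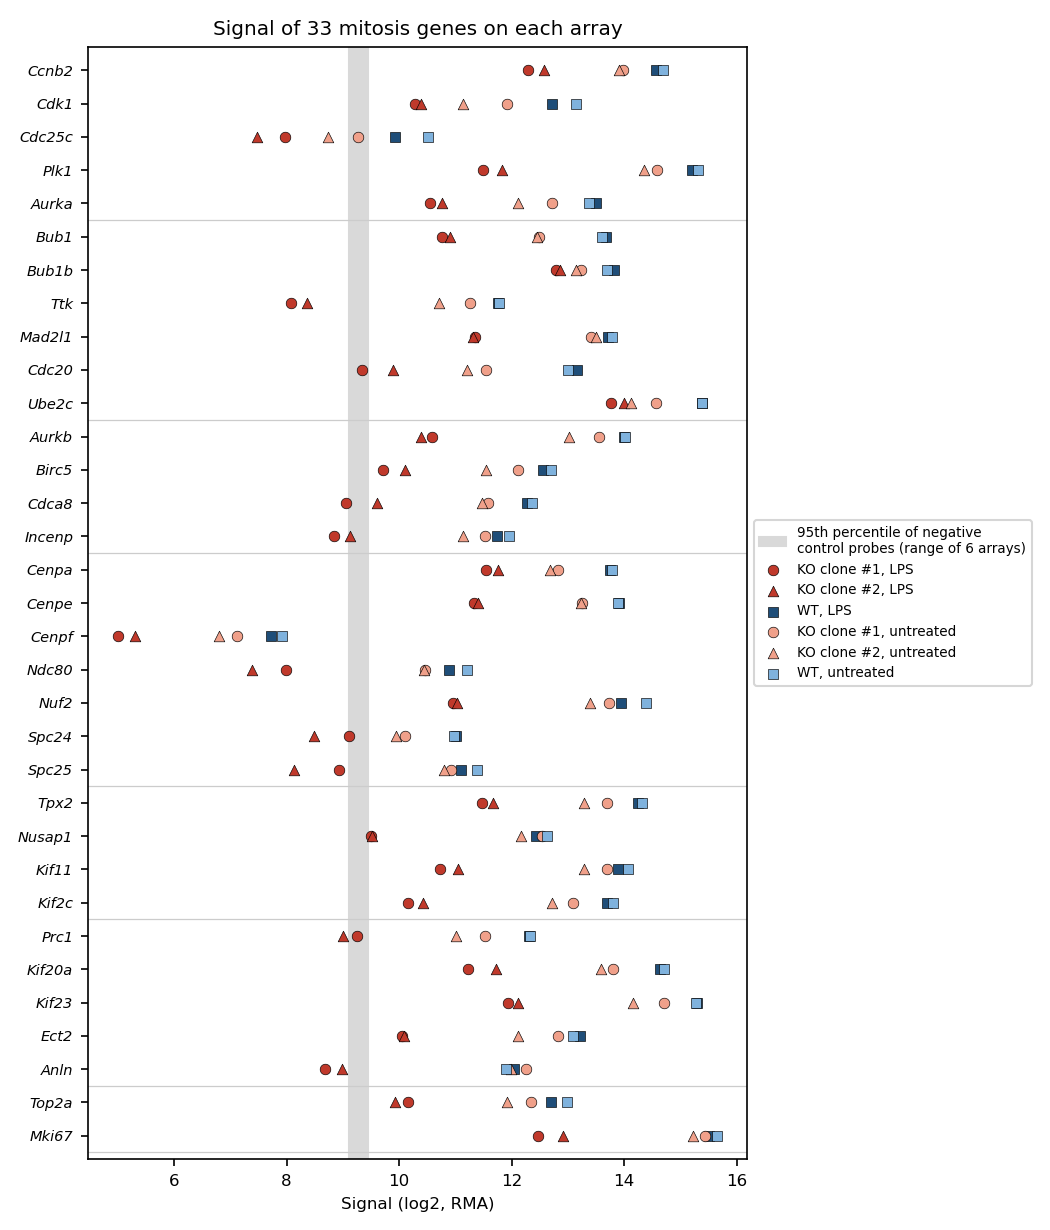
Log2 RMA signal (x axis) of the 33 measured genes (rows, grouped by role between the grey lines) on the 6 arrays: red, KO with LPS; dark blue, WT with LPS; pale red, untreated KO; pale blue, untreated WT; circles are clone #1, triangles clone #2 and squares WT. The grey band is the range of the dim limit, 9.12 to 9.45, and in every row both dark red points lie left of the other 4 points.

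The first comparison asked how KO and WT cells differed after LPS. All 33 measured members were lower in KO cells in limma at an adjusted p under 0.05, against 6.66% of all genes that were lower by this rule. Their median log2 difference was -2.84, against -0.0028 over all genes, and it ran from -3.55 for Plk1 to -1.0 for Bub1b. On the fold scale KO cells were 1.99-fold (Bub1b) to 11.7-fold (Plk1) lower, over the 24 members not dim throughout a group. Both KO arrays were below the WT array for 33 of 33 members, an arrangement found in 40.1% of all genes. On signals as measured, dim ones included, 32 of 33 members were over 2-fold lower on both KO arrays. In either direction, 1941 of 19505 genes met this fold rule. Against the dim limit, the bound for Cdc25c was only 1.42-fold. WT cells had 1 array, whose spread was taken from that of the clones. Tests without moderation of the variance passed no member (unmoderated test on 4 groups and the methods' t-test, 0 each). At an unadjusted p under 0.05 these 2 tests held 33 and 16 members, against 3428 and 1834 of 19505 genes in either direction.

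Of the members, 9 were dim on both KO arrays with LPS: Cdc25c, Ttk, Incenp, Cenpf, Ndc80, Spc24, Spc25, Prc1 and Anln. Their fitted log2 differences test signals as measured, dim ones included, and a bound against the dim limit is given for those named below. Cenpf was dim on all 6 arrays, so no fold is given for it. With the other 8 at their bounds and Cenpf left out, the median log2 difference of the members was -2.67, and over the 24 members above the limit in both groups it was -2.85.

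The members also shared promoter features that the choice of the list did not use. RefSeq promoter windows (GRCm38.p6), from 250 bases before to 50 after the start, were found for 28 of the 34 members in 30 windows, and none was found for Cdc25c, Aurkb, Incenp, Spc24, Tpx2 and Kif20a. The cell cycle homology region, an element known from late cell cycle promoters, was searched as TTTGAA on both strands and was present in 23 of 30 windows (76.7%, exact 95% interval 57.7% to 90.1%), against 17.9% of 32851 windows of the same length. The NF-Y box, searched as CCAAT on both strands, was in 76.7% of the members' windows, against 37.4% of all windows. Both together were in 66.7% of the members' windows, against 6.95% of all windows. The E2F site of replication genes, searched on both strands as TTTCGCGC or TTTGGCGC, was in 3.33% of the members' windows, against 0.813% of all windows. The windows of Ect2 and of Prc1 were counted in pairs that overlap, and a match is a run of letters and not a tested site. Matches to different motifs can also overlap. In Cdca8 a match to the homology region starts at base 14 and a CCAAT match at base 19.

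A few of these promoters are printed, from 100 bases before to 30 after the start of the RefSeq window. They were chosen because both motifs lie in these bases and because the genes span large differences (Cdc20, Ttk) and small ones (Ube2c). That start is the gene's RefSeq 5′ end except for Ttk, where it is base 83834689, downstream of the 5′ end at 83834651. Capitals mark TTTGAA or its reverse complement TTCAAA, and CCAAT or its reverse complement ATTGG. In order the windows are Ccnb2 at chr9:70421525-70421654 (minus strand), Cdk1 at chr10:69352883-69353012 (minus), Cdc20 at chr4:118437314-118437443 (minus), Ttk at chr9:83834589-83834718 (plus), Kif11 at chr19:37376282-37376411 (plus) and Ube2c at chr2:164769829-164769958 (plus), each printed 5′ to 3′ along its gene.
Ccnb2: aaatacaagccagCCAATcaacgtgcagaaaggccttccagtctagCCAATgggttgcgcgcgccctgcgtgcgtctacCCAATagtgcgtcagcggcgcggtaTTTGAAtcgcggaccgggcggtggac
Cdk1: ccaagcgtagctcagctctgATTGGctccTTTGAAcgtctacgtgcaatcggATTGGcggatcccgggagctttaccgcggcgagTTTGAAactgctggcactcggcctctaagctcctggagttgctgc
Cdc20: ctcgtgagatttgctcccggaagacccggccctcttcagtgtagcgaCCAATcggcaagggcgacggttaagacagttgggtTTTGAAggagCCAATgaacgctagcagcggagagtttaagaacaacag
Ttk: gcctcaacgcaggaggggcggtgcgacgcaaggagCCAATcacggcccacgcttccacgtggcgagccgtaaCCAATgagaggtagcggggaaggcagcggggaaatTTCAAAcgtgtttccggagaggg
Kif11: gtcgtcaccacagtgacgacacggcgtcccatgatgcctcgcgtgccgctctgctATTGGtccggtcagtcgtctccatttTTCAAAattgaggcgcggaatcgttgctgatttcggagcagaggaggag
Ube2c: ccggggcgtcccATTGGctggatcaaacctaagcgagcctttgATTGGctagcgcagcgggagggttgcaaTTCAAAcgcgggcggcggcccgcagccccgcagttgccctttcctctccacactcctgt
In the 20 windows that held a CCAAT upstream of the homology region, the shortest distance between them in each window had a median of 28.5 bases. The overlapping windows of Ect2 and of Prc1 were each counted. Of 30 matches to the homology region in the members' windows, 22 lay within 50 bases of the start.

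**Figure D2:**
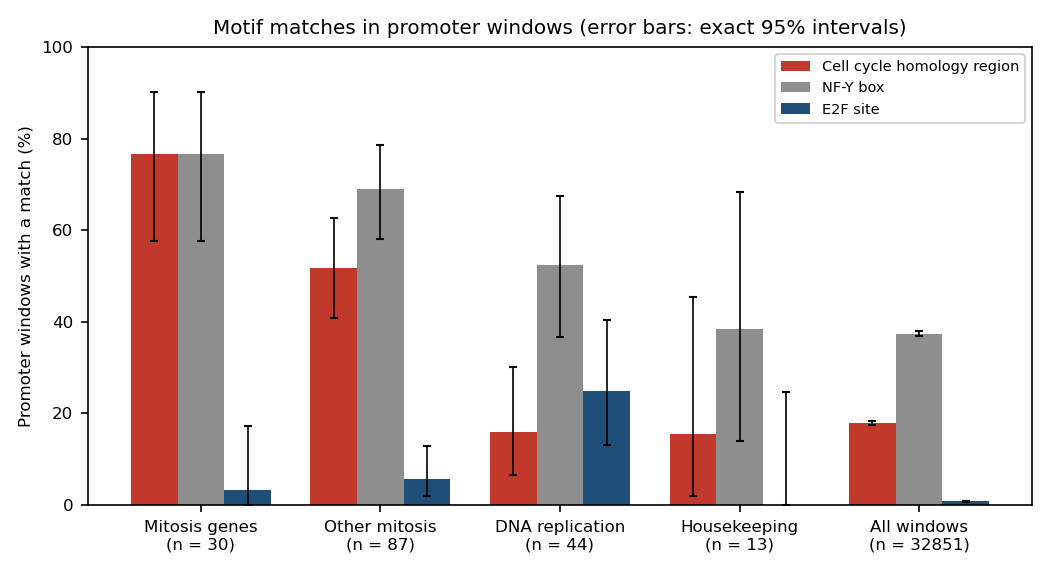
Share of promoter windows (y axis, percent) with a match to the cell cycle homology region (red), the NF-Y box (grey) and the E2F site (blue) for the mitosis genes, other lists and all windows (x axis, with the number of windows). Error bars are exact 95% intervals over windows, and the mitosis genes show 76.7% for the homology region, against 15.9% for DNA replication genes and 17.9% for all windows.

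Members were lower in KO cells with LPS whether or not their windows held a match to the homology region as searched. The median KO minus WT log2 difference with LPS was -2.94 in the 21 measured members with a match. It was -2.75 in the 6 measured members whose windows held no TTTGAA, and dim members entered both medians as fitted. The members without a match were Bub1, Mad2l1, Birc5, Cenpe, Nuf2, Nusap1 and the unmeasured Ccnb1, and other forms of the element were not searched. The homology region was found in 51.7% of the windows of other mitosis genes and in 15.9% of those of DNA replication genes, whose windows held an E2F site in 25% of cases.

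The entry kinases and their activators fell most in Plk1, the Polo kinase that matures centrosomes and promotes entry into mitosis. Plk1 read 11.49 and 11.83 in KO cells with LPS, against 15.21 in WT cells with LPS, with 14.59 and 14.35 in untreated KO cells, against 15.30 in untreated WT cells. It was 11.7-fold lower in KO cells with LPS (log2 difference -3.55, SE 0.24, adjusted p = 0.00112 in limma). Only the KO arrays with LPS stood far from the rest. Aurka, the Aurora kinase of centrosomes and spindle poles, read 10.55 and 10.76 in KO cells with LPS, against 13.50 in WT cells with LPS, with 12.71 and 12.12 in untreated KO cells, against 13.37 in untreated WT cells. Aurka was lower with LPS, with a log2 difference of -2.85 (SE 0.29, adjusted p = 0.0034). Ccnb2, a B-type cyclin that activates Cdk1, differed least among the members of this group above the dim limit. Its signals were 12.28 and 12.58 in KO cells with LPS, against 14.56 in WT cells with LPS, with 13.97 and 13.91 in untreated KO cells, against 14.69 in untreated WT cells. It was 4.39-fold lower in KO cells with LPS (log2 difference -2.13, SE 0.21, adjusted p = 0.00309). The other measured genes of the group were Cdk1, the kinase that drives mitosis, at -2.38 and Cdc25c, the phosphatase that activates Cdk1, which was at least 1.42-fold lower.

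Among the checkpoint and anaphase-promoting complex genes, the largest fall of those above the dim limit was in Cdc20, the activator through which the complex recognizes its substrates in mitosis. Cdc20 read 9.34 and 9.90 in KO cells with LPS, against 13.17 in WT cells with LPS, with 11.54 and 11.20 in untreated KO cells, against 13.00 in untreated WT cells. It was 11.7-fold lower in KO cells with LPS (log2 difference -3.55, SE 0.30, adjusted p = 0.00183), with 1 of the KO arrays just under the dim limit, and the untreated KO arrays lay between those of KO cells with LPS and of WT cells. Ttk, the kinase that starts the checkpoint signal at kinetochores, read 8.07 and 8.37 in KO cells with LPS, against 11.75 in WT cells with LPS, with 11.26 and 10.71 in untreated KO cells, against 11.77 in untreated WT cells. Both of its KO arrays with LPS were dim, so it was at least 4.99-fold lower (adjusted p = 0.00171 for the measured signals). Bub1b, which encodes BubR1, a checkpoint protein that inhibits Cdc20, differed least of the 24 members above the dim limit. It read 12.79 and 12.85 in KO cells with LPS, against 13.82 in WT cells with LPS, with 13.24 and 13.15 in untreated KO cells, against 13.69 in untreated WT cells. The groups did not overlap, and the log2 difference with LPS was -1.0 (SE 0.19, adjusted p = 0.0245). Bub1, a checkpoint kinase, Mad2l1, the checkpoint protein that binds Cdc20, and Ube2c, the ubiquitin-conjugating enzyme of the complex, had log2 differences of -2.84, -2.37 and -1.50.

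All 4 genes of the chromosomal passenger complex, which corrects faulty attachments of chromosomes, fell together. Aurkb, its kinase, read 10.58 and 10.39 in KO cells with LPS, against 13.99 in WT cells with LPS, with 13.56 and 13.02 in untreated KO cells, against 14.01 in untreated WT cells. It was 11.3-fold lower in KO cells with LPS (log2 difference -3.50, SE 0.28, adjusted p = 0.00151). Cdca8, or borealin, which helps bring the complex to centromeres, read 9.06 and 9.61 in KO cells with LPS, against 12.27 in WT cells with LPS, with 11.58 and 11.48 in untreated KO cells, against 12.35 in untreated WT cells. Its log2 difference with LPS was -2.94 (SE 0.27, adjusted p = 0.0024), with 1 of the KO arrays under the dim limit. Birc5, or survivin, the subunit that reads a histone mark at centromeres, read 9.71 and 10.10 in KO cells with LPS, against 12.56 in WT cells with LPS, with 12.11 and 11.54 in untreated KO cells, against 12.71 in untreated WT cells. The log2 difference with LPS was -2.65 (SE 0.31, adjusted p = 0.00501). Incenp, the scaffold of the complex, was dim in KO cells with LPS and at least 4.93-fold lower.

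In the centromere and kinetochore group, the subunits of the Ndc80 complex, which grips microtubules, were lower along with the centromeric proteins. Ndc80 read 8.0 and 7.39 in KO cells with LPS, against 10.90 in WT cells with LPS, with 10.45 and 10.43 in untreated KO cells, against 11.20 in untreated WT cells. It was dim on both KO arrays with LPS and at least 2.75-fold lower (adjusted p = 0.00218 for the measured signals). Nuf2, its partner in the complex, read 10.97 and 11.02 in KO cells with LPS, against 13.93 in WT cells with LPS, with 13.73 and 13.40 in untreated KO cells, against 14.39 in untreated WT cells. It was 7.67-fold lower in KO cells with LPS (log2 difference -2.94, SE 0.22, adjusted p = 0.00132). The other subunits of this complex, Spc24 and Spc25, were dim in KO cells with LPS and at least 2.98-fold and 3.16-fold lower. Cenpa, the histone H3 variant that marks centromeres, differed least of those above the limit. It read 11.55 and 11.75 in KO cells with LPS, against 13.74 in WT cells with LPS, with 12.82 and 12.68 in untreated KO cells, against 13.78 in untreated WT cells. Its log2 difference with LPS was -2.09 (SE 0.20, adjusted p = 0.00279). Cenpe, a kinesin that moves chromosomes to the spindle equator, had a log2 difference of -2.53.

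The spindle assembly genes were all lower as well. Kif2c, a kinesin that shortens microtubules and frees faulty attachments, read 10.16 and 10.42 in KO cells with LPS, against 13.70 in WT cells with LPS, with 13.08 and 12.71 in untreated KO cells, against 13.80 in untreated WT cells. It was 10.6-fold lower in KO cells with LPS (log2 difference -3.41, SE 0.24, adjusted p = 0.00124). Kif11, the kinesin that pushes spindle poles apart, read 10.73 and 11.05 in KO cells with LPS, against 13.89 in WT cells with LPS, with 13.69 and 13.29 in untreated KO cells, against 14.07 in untreated WT cells. Its log2 difference with LPS was -3.0 (SE 0.26, adjusted p = 0.00198). Tpx2, which activates Aurka and seeds microtubules, read 11.48 and 11.67 in KO cells with LPS, against 14.25 in WT cells with LPS, with 13.69 and 13.28 in untreated KO cells, against 14.31 in untreated WT cells. Its KO minus WT difference with LPS was -2.68 on the log2 scale (SE 0.24, adjusted p = 0.00233). Nusap1, which bundles spindle microtubules, had a log2 difference of -2.92.

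The central spindle and cytokinesis genes were all lower, and the 3 above the dim limit in both groups, Kif23, Kif20a and Ect2, had log2 differences of -3.27 to -3.15. Kif23, the kinesin of the centralspindlin complex at the middle of the spindle, read 11.93 and 12.11 in KO cells with LPS, against 15.29 in WT cells with LPS, with 14.71 and 14.16 in untreated KO cells, against 15.28 in untreated WT cells. It was 9.65-fold lower in KO cells with LPS (log2 difference -3.27, SE 0.28, adjusted p = 0.0019). Anln, or anillin, the scaffold of the cleavage furrow, read 8.68 and 8.98 in KO cells with LPS, against 12.04 in WT cells with LPS, with 12.26 and 11.99 in untreated KO cells, against 11.90 in untreated WT cells. It was at least 6.10-fold lower with LPS (adjusted p = 0.00124 for the measured signals), although both untreated KO arrays lay above the untreated WT array. Ect2, which switches on the GTPase that contracts the furrow, read 10.04 and 10.09 in KO cells with LPS, against 13.22 in WT cells with LPS, with 12.83 and 12.12 in untreated KO cells, against 13.10 in untreated WT cells. Its log2 difference with LPS was -3.15 (SE 0.31, adjusted p = 0.0031). Prc1, which cross-links microtubules of the central spindle, was at least 7.33-fold lower, and Kif20a, a kinesin of the central spindle, had a log2 difference of -3.16.

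Mki67, the proliferation antigen that coats mitotic chromosomes, and Top2a made up the last group, and both were lower. Mki67 read 12.47 and 12.92 in KO cells with LPS, against 15.52 in WT cells with LPS, with 15.43 and 15.23 in untreated KO cells, against 15.65 in untreated WT cells. It was 7.06-fold lower with LPS (log2 difference -2.82, SE 0.25, adjusted p = 0.00225). Top2a, the topoisomerase that untangles sister chromatids, read 10.15 and 9.92 in KO cells with LPS, against 12.69 in WT cells with LPS, with 12.34 and 11.92 in untreated KO cells, against 12.98 in untreated WT cells. Its KO minus WT difference with LPS was -2.65 on the log2 scale (SE 0.25, adjusted p = 0.00259).

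**Figure D3:**
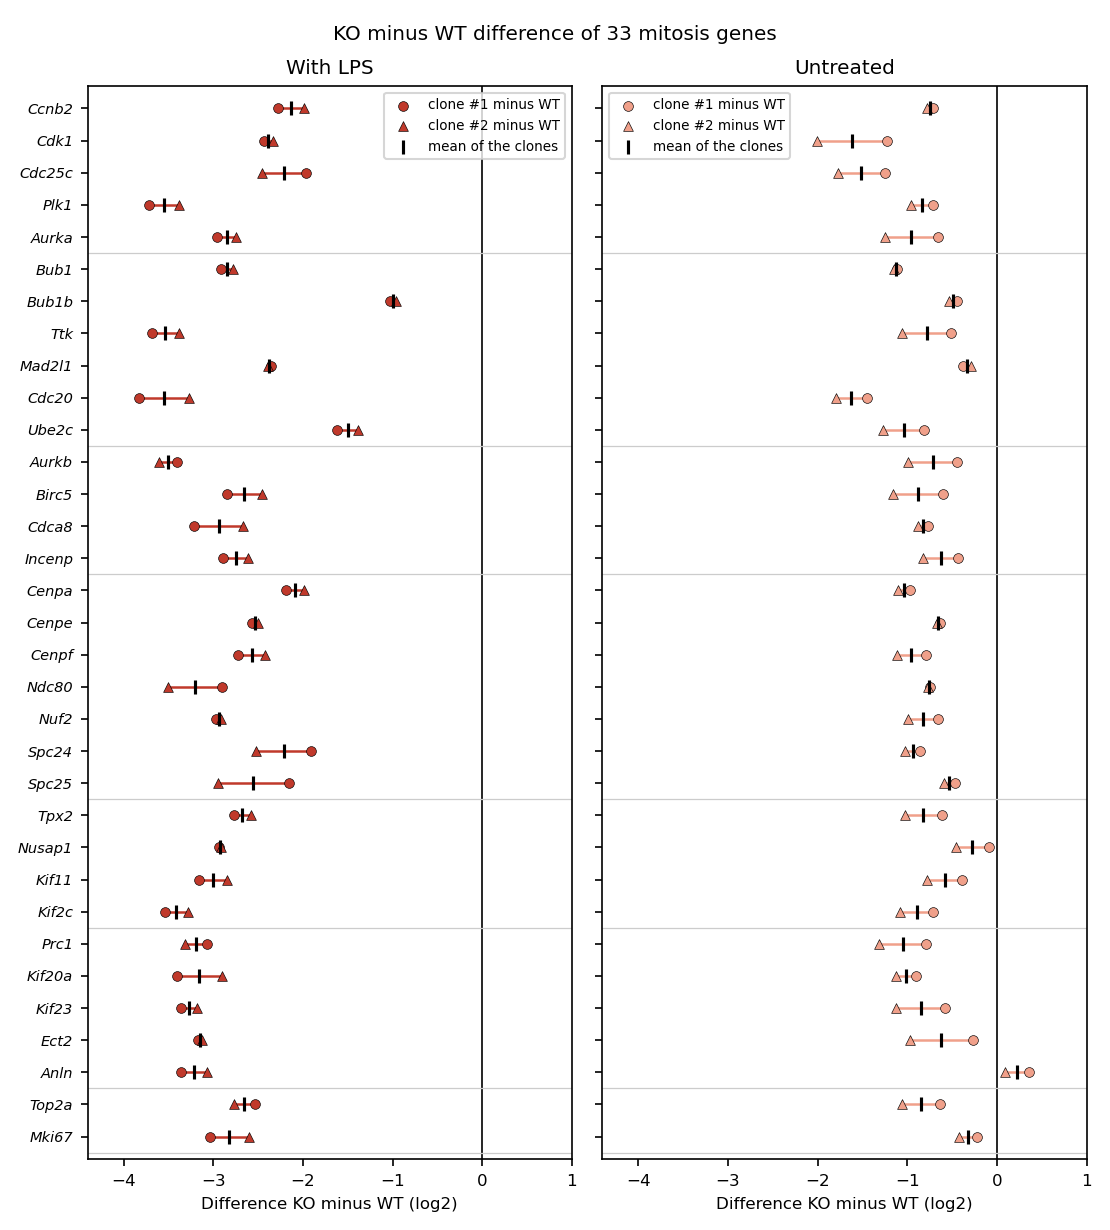
KO minus WT difference in log2 signal (x axis) of the 33 measured genes (rows) with LPS (left) and untreated (right), with clone #1 as circles, clone #2 as triangles and their mean as a bar; lines join the clones. With LPS every point lies left of 0 and the median is -2.84, whereas the untreated median is -0.82 and only Anln lies right of 0.

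The second comparison asked how much of the difference between the genotypes was present without LPS. Of 33 members, 2 were lower in untreated KO cells than in untreated WT cells, Bub1 and Cdc20, against 2.14% of all genes. The clone was also fitted as a replicate block, since each clone was measured in both treatments. With the block, 6 members passed, and calls over all genes in either direction rose from 840 to 1339. The median log2 difference was -0.82, against 0.03 over all genes, 26 of 33 members had an unadjusted p under 0.05 (all genes lower by this rule, 10.5%), and both KO arrays lay below the WT array for 32 of 33 members (all genes, 37%). Bub1 read 12.49 and 12.45 in untreated KO cells, against 13.60 in untreated WT cells (log2 difference -1.13, SE 0.19, adjusted p = 0.0364). Cdc20 had the largest untreated difference of the 33 members, at -1.62 (SE 0.30, adjusted p = 0.0447). Cdk1 followed, but its clones lay further apart, with 11.92 and 11.14 in untreated KO cells, against 13.15 in untreated WT cells, and it did not pass (log2 difference -1.62, SE 0.34, adjusted p = 0.0623). At the other end, Nusap1 read 12.53 and 12.17 in untreated KO cells, against 12.62 in untreated WT cells (log2 difference -0.27, SE 0.22, adjusted p = 0.573). Anln had a log2 difference of 0.22 (SE 0.23, adjusted p = 0.67).
Of the 12 housekeeping genes used for centring, Tfrc was itself lower in untreated KO cells in limma (13.07 and 12.67, against 14.54 in untreated WT cells). The untreated count of members rested on few arrays. It was 1 without untreated KO clone #1, 0 without untreated KO clone #2, 4 without either KO array with LPS, and 0 when the arrays were centred on 12 housekeeping genes, and the untreated WT array is the one with a gene-level summary.

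As a share of the log2 difference with LPS, the untreated difference was 29.4% in the median of the 24 members above the dim limit in both groups with LPS. It was over 50% in 2 of them, at 69.3% for Ube2c and 67.9% for Cdk1. It was under 25% in 7 of them, among them Mki67 at 11.4% and Nusap1 at 9.40%. These shares have no test of their own.

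The third comparison asked what LPS did in each genotype. In KO cells, 31 of 33 members were lower with LPS than untreated, against 9.8% of all genes, and the median log2 difference was -2.15 (all genes, -0.03). Both LPS arrays lay below both untreated arrays in 33 of 33 members, an arrangement found in 31% of all genes. With dim members at their bounds and those dim in both groups left out, the median was -1.91. Anln was at least 6.46-fold lower with LPS (adjusted p = 0.000396 for the measured signals). Nusap1, at 9.49 and 9.52 in KO cells with LPS, against 12.53 and 12.17 in untreated KO cells, had a log2 difference of -2.85 (SE 0.18, adjusted p = 0.00054), the largest among members above the dim limit in both groups. Of the members, 2 did not pass, Ube2c and Bub1b. Ube2c read 13.76 and 14.00 in KO cells with LPS, against 14.57 and 14.12 in untreated KO cells (log2 difference -0.46, SE 0.21, adjusted p = 0.232). Bub1b had a log2 difference of -0.37 (SE 0.15, adjusted p = 0.183). Without moderation of the variance, 0 members passed in KO cells, and 29 had an unadjusted p under 0.05 (all genes in either direction, 3978 of 19505).

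In WT cells, no member passed the test for LPS against untreated (limma, 0 of 33; 0 of all genes, 0%), and none had an unadjusted p under 0.05, against 658 of all genes (3.37%). The block and the unmoderated test also passed 0 members. The median log2 difference was -0.08, and 23 of 33 members were below 0. The 2 largest differences were -0.58 for Cdc25c (9.94 in WT cells with LPS, against 10.52 in untreated WT cells, SE 0.36) and -0.45 for Nuf2 (13.93 in WT cells with LPS, against 14.39 in untreated WT cells, SE 0.25). Cenpe (13.90 in WT cells with LPS, against 13.90 in untreated WT cells) and Ube2c (15.38 in WT cells with LPS, against 15.38 in untreated WT cells) differed least. Over all genes the LPS change in WT cells was small too, at -0.46 to 0.48 from the 5th to the 95th percentile. In KO cells that range was -1.23 to 1.02. Beyond this test of each gene, with 1 WT array per treatment, how strongly the WT cells responded to LPS was not tested.

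**Figure D4:**
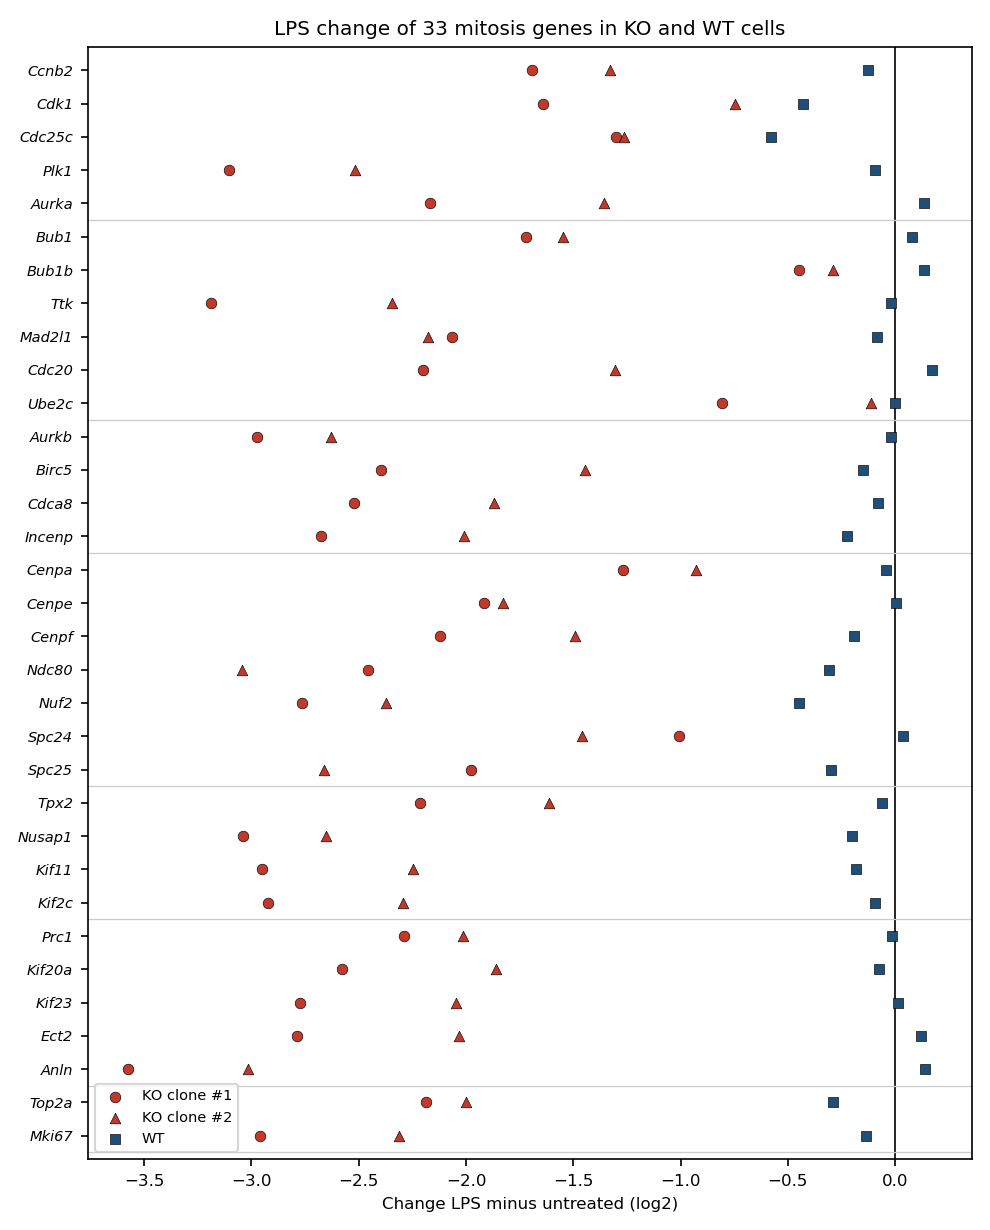
LPS minus untreated change in log2 signal (x axis) of the 33 measured genes (rows), for KO clone #1 (red circles), KO clone #2 (red triangles) and WT cells (blue squares). The WT points run from -0.58 to 0.17, and both KO points lie left of the WT point in every row.

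The difference between the LPS responses of KO and WT cells was itself tested. Of 33 members, 18 had a lower response in KO cells, against 1.86% of all genes, with a median log2 difference between responses of -2.04 (all genes, -0.04), and 29 had an unadjusted p under 0.05 (all genes lower by this rule, 9.79%). For Aurkb the difference between the responses was -2.78 (SE 0.39, adjusted p = 0.0255), and for Anln the fitted value was -3.43 (SE 0.33, adjusted p = 0.01), the size of which is not settled because both of its KO arrays with LPS were dim. It was smallest in Ube2c (-0.46, SE 0.37, adjusted p = 0.624) and Bub1b (-0.50, SE 0.26, adjusted p = 0.42). The count depended on the untreated clones, with 1 member without untreated KO clone #1 and 4 without untreated KO clone #2, and it was 0 without moderation of the variance. By fold alone, on signals as measured and with dim members such as Anln included, 28 members had a response over 2-fold lower in every pair of arrays. This count has no test, and the share of all genes under the same rule is not given here.

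The KO clones differed among themselves in opposite directions in the 2 treatments. Clone #1 was higher than clone #2 in 8 of 33 members with LPS, with a median log2 difference of -0.19. Untreated, it was higher in 32 of 33 members, with a median log2 difference of 0.34. Over all genes clone #1 was higher in 45.9% with LPS and in 49.1% untreated. The same turn was seen in 89 other mitosis genes, where clone #1 was higher in 30.3% with LPS and 85.4% untreated, and in 44 DNA replication genes, at 27.3% with LPS and 88.6% untreated. Each clone had 1 array per treatment, so no test was possible.

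Other mitosis genes, listed for comparison, were lower in KO cells with LPS in 80 of 89 cases (all genes, 6.66%) and higher in none (all genes, 4.62%). Their median log2 difference was -2.41 as fitted and -1.55 with dim genes at their bounds. The genes named by the fitted differences were Fbxo5, an inhibitor of the anaphase-promoting complex that was at least 8.67-fold lower, Ccna2, the cyclin of S phase and early mitosis (log2 difference -4.13, SE 0.39, adjusted p = 0.00271), and Cdca5, a protector of cohesin that was at least 3.24-fold lower. Ccna2 read 10.00 and 10.88 in KO cells with LPS, against 14.57 in WT cells with LPS. Of the genes that did not pass, Fzr1, the activator of the complex outside mitosis, was at -1.07, Bub3, the partner of Bub1 and Bub1b, was at -0.86, and Zwint, a kinetochore protein, was at 0.13.

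The constitutive subunits of the anaphase-promoting complex differed less, with 2 of 14 lower (all genes, 6.66%) and a median of -0.54. These were Cdc23, which was at least 1.94-fold lower, and Anapc11, its ubiquitin ligase subunit, at -1.30 (SE 0.20, adjusted p = 0.0136). Housekeeping genes had a median of -0.16 with LPS, and 0 of 12 passed (limma, 0 also at an unadjusted p under 0.05). Untreated, their median was -0.08, and 1 of 12 was lower in KO cells, Tfrc at -1.67 (all genes, 2.14%).

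Of 21 measured transcription factors and cofactors of cell cycle genes, 12 were lower in KO cells with LPS (all genes, 6.66%) and 0 higher. Their median log2 difference was -1.22 as fitted and -0.63 with dim genes at their bounds. Mybl2, a factor that binds late cell cycle promoters with the MuvB proteins, differed most, at 8.90 and 9.78 in KO cells with LPS, against 14.58 in WT cells with LPS, 1 of the KO arrays being dim (log2 difference -5.24, SE 0.39, adjusted p = 0.0013). E2f8, a repressing E2F, was at -4.46 (SE 0.27, adjusted p = 0.00105), and E2f2, an activating one, was at least 1.99-fold lower. Of the MuvB core, Lin9 was dim in KO cells with LPS and at least 2.27-fold lower, and Lin37, Lin52 and Lin54 did not pass. Of the NF-Y subunits, Nfyb was lower (-1.36), and Nfya and Nfyc did not pass.

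Brakes on the cycle and p53 targets did not move as 1 group, with 6 higher (all genes, 4.62%) and 4 lower (all genes, 6.66%) of 24, of which 14 were dim in both groups. Gadd45b, a stress protein that can inhibit Cdk1, read 12.89 and 12.32 in KO cells with LPS, against 8.71 in WT cells with LPS, and was at least 11.2-fold higher. Untreated, it was lower in KO cells, with all arrays dim (5.97 and 5.99 in KO cells, against 8.62 in WT cells). Btg1, an antiproliferative factor, read 15.21 and 14.42 in KO cells with LPS, against 10.96 in WT cells with LPS (log2 difference 3.85, SE 0.39, adjusted p = 0.0033). Wee1, the kinase that restrains Cdk1, was at least 7.4-fold lower in KO cells with LPS. Cdkn1a, or p21, the CDK inhibitor induced by p53, was chosen after its values were seen and did not pass (log2 difference 0.75, adjusted p = 0.25 in limma). Over the list, 10 of 24 differences with LPS were below 0, and the median log2 difference was 0.14 as fitted. It was 0.70 with dim genes at their bounds and those dim in both groups left out. Mdm2 and Ccng1, p53 targets also chosen after their values were seen, do not stand for the list. Mdm2 read 15.70 and 15.58 in KO cells with LPS, against 13.94 in WT cells with LPS. Ccng1 read 13.78 and 14.07 in KO cells with LPS, against 14.35 in WT cells with LPS.

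DNA replication genes, which act earlier in the cycle, fell as the mitosis genes did, with 44 of 44 lower in KO cells with LPS (all genes, 6.66%). Their median log2 difference was -2.59 as fitted and -2.34 with dim genes at their bounds. Rrm2, a subunit of ribonucleotide reductase, read 10.18 and 11.35 in KO cells with LPS, against 15.46 in WT cells with LPS (log2 difference -4.69, SE 0.47, adjusted p = 0.00312). Chaf1b, which places histones on new DNA, was at least 5.73-fold lower, and Pold1, the catalytic subunit of a replicative polymerase, was at least 1.01-fold lower.

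**Figure D5:**
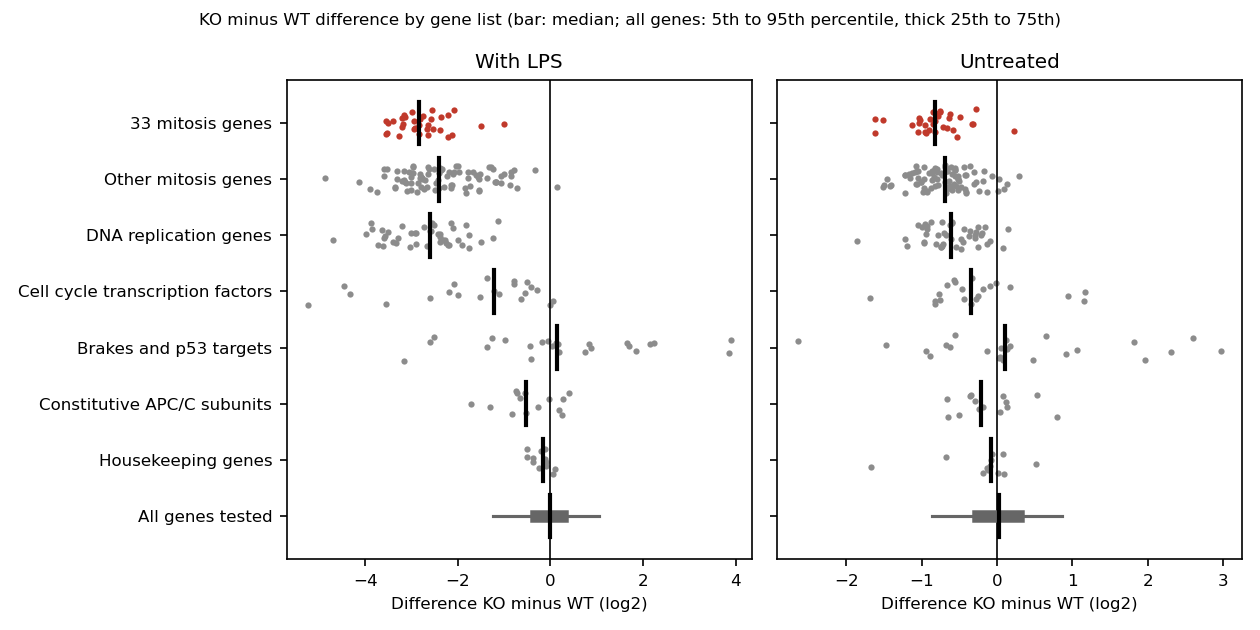
KO minus WT difference in log2 signal (x axis) by gene list (rows), with LPS (left) and untreated (right). Points are genes, black bars are medians, and for all genes the thin line spans the 5th to 95th percentile and the thick line the 25th to 75th; dim genes are drawn at their fitted values. With LPS the fitted medians were -2.84 for the mitosis genes, -2.59 for DNA replication genes, -0.54 for constitutive APC/C subunits and -0.16 for housekeeping genes.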

How the data were processed

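Mouse Clariom S arrays were hybridized with total RNA from 6 RAW-D cultures. The authors summarized the scans with RMA in Expression Console (version not given in the sources used here) and deposited log2 values, normalized by quantiles across arrays. Symbols came from the array's annotation. For 55 genes with several probe sets the brightest on average stood for the gene, which left 19505 genes.

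Groups followed the labels. limma 3.58.1 in R 4.3.3 fitted 1 mean per group, with moderated variances (2 degrees of freedom from the arrays and 3.83 from the prior), and p-values were adjusted by Benjamini-Hochberg across the 19505 genes, at 0.05. The spread came from the KO clones, which may be technical or clonal, and permuting 1 array against 2 exactly allows no p under 0.333. Same-numbered KO arrays come from the same clone (correlation of deviations across genes 0.222), so the numbers pair the samples, and a blocked fit by clone was also made. Array number limits the precision, and no read depth applies. Bounds set the bright group against the higher of the dim limit and the dim signal.

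The members and the other lists were chosen with earlier results of these data known. Within each role, the 2 members with the largest and the 1 with the smallest difference with LPS were named in full, for other contrasts the 2 largest and the 2 smallest, and for other lists the 3 largest that passed. Other genes named, such as those of MuvB and NF-Y, were chosen after their values were seen. Motif searches used RefSeq promoter windows of GRCm38.p6. The fit was tested on simulated data. The alternatives left out each KO array or changed the block, normalization, filter, moderation, threshold, test or promoter window. Scanned images were not used here.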

Additional observations from a re-analysis of the deposited data

Results flagged for a closer look

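The LPS response of 18 members differed between KO and WT cells in limma's test of the difference itself. By this test the KO minus WT difference between the responses was -2.785 on the log2 scale for Aurkb. The fitted value was -3.434 for Anln, whose KO arrays with LPS were both dim, so that its size is not settled. The smallest differences between the responses were in Ube2c and Bub1b, which did not pass.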

How the results depend on the processing

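For KO against WT with LPS, the 33 members that passed became 0 with no moderation and 0 with the methods' t-test, and 32 to 33 when a KO array was left out. Its median log2 difference was -2.64 with housekeeping centring and -2.91 to -2.77 with a KO array left out. Relative to its average over the 6 arrays, the housekeeping mean lay at -0.10 and -0.05 on the KO arrays with LPS and 0.13 on the WT array with LPS, and at -0.03 and -0.09 on the untreated KO arrays and 0.14 on the untreated WT array, and this centring moved every gene by these shifts. For KO against WT untreated, the 2 members became 6 with the replicate block, 5 with only genes above the dim limit on 1 array, 7 with an intensity trend, 4 with only the arrays compared, 7 at an adjusted p under 0.1, 4 by the 2-fold rule, and 0 with housekeeping centring, no moderation, the methods' t-test or an adjusted p under 0.01. With a KO array left out the count was 0 to 4. For LPS in KO cells, the 31 members became 0 with no moderation and 0 with the methods' t-test, and 27 to 30 with a KO array left out. For the difference between responses, the 18 members became 0 with no moderation or an adjusted p under 0.01 and 28 by the 2-fold rule, and 1 to 23 with a KO array left out. The block gave 23 there (all genes in either direction, 1078, against 641 in the main fit). Only the untreated count of members in KO against WT moved by over 1.5 times with it. For the other alternatives of the untreated comparison, the counts over all genes are not given here. The share of members' windows with an E2F site was 0% within 150 bases around the start. Among the named members, 524 alternative values were computed. None reversed, 464 kept their side of the threshold, 56 no longer passed (48 of them in tests without moderation) and 4 newly passed. Counts by the 2-fold rule have no test and use signals as measured, dim ones included. A WT array could not be left out, since its group would be empty. The cause of each change was not tested, except that the shorter window holds fewer bases.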
